A study of Mus musculus with 6 samples.

Results

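Interleukins and their receptors form a set of secreted signals and membrane chains through which immune, stromal and endothelial cells address each other. They were followed here in liver sinusoidal endothelial cells, the fenestrated lining of the liver's capillaries. Members were the protein-coding genes of the deposited table whose symbol begins with Il and a digit, 82 of 48897 genes. The choice used the name only, so the set also holds Il4i1, an amino acid oxidase, and soluble antagonists such as Il1rn and Il18bp. The cells came from C57BL/6 mice of 7 to 8 weeks, 14 days after an operation, and were purified on beads against CD146. The operation was either a partial hepatectomy (PHx), in which a piece of the liver is cut away, or a sham procedure (Sham). Each group held 3 libraries, numbered 1, 3 and 4. No label ties a library to a separate animal, so the p-values rest on a spread between samples that may be technical.

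As background, most members work as pairs of ligand and receptor. Cytokines of the IL-1 family bind receptors that recruit the adaptor MYD88 and activate NF-kB, while most others bind receptors coupled to JAK kinases and STAT factors. In the liver, IL-6 acting through the shared receptor chain gp130, encoded by Il6st, is known for its part in the response of hepatocytes to the loss of liver mass. IL-33 is a nuclear cytokine of stromal and endothelial cells that is released on damage, and IL-34 is a second ligand of the receptor of macrophage colony-stimulating factor.

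The libraries held between 38765116 and 51888481 counts, and between 59 and 68 of the 82 members were detected in each library. Levels are given as CPM, counts divided by library size and scaled by the trimmed-mean-of-M-values method (TMM), and a count of 0 allows up to 3 counts, between 0.0580 and 0.0795 CPM. Of 12 sinusoidal endothelial markers, all were present in all libraries, and their summed level was 32070 to 33949 CPM in Sham and 17600 to 27440 CPM in PHx. None of the 12 was called. Lyve1 and Mcam overlapped between groups, with log2 fold changes of 0.16 and 0.11, and all the others were lower in every PHx library. Markers of other cells differed as well. The 12 stellate and fibroblast markers summed to 1693 to 2164 CPM in Sham and 5061 to 6542 CPM in PHx, with 8 of them called higher, and the 6 mesothelial markers to 24.8 to 47.0 and 81.8 to 130.7 CPM. The 14 neutrophil markers summed to 520, 279 and 55.9 CPM in Sham 1, 3 and 4 and to 930, 42.2 and 5376 CPM in PHx 1, 3 and 4. Kupffer cell and macrophage markers, 10 in number, summed to 159 to 591 CPM in Sham and 221 to 282 CPM in PHx, and the 10 T and NK cell markers to 14.7 to 26.8 and 7.52 to 23.5 CPM. In bulk RNA, fewer cells of a type and less RNA per cell cannot be told apart.

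Of the 82 members 57 had enough counts to be tested, and edgeR's quasi-likelihood test, at a threshold of 0.05 on the adjusted p, called 1 of them higher after PHx and none lower. Over all 19033 tested genes 0.846% were higher and 0.0158% lower. The gene called was Il34. DESeq2 called 5 members higher and 1 lower, beside 3.85% and 0.654% of all genes with an adjusted p in that tool. With limma-voom 1 member was called higher and 0 lower, beside 0.494% and 0.00525% of all genes. At an unadjusted p under 0.05 in edgeR there were 8 members higher and 2 lower, beside 7.93% and 4.73% of all tested genes. The PHx libraries all lay above the Sham libraries for 8 tested members and all below for 6, where 10.6% and 9.96% of all tested genes did so. A positive log2 fold change was found for 42 of the 57, and for 53% of all tested genes. The median log2 fold change of the tested members was 0.63, beside 0.03 for all tested genes. Without PHx 4 that median was 0.24, and without PHx 1 and PHx 4 together it was 0.03, beside -0.02 for all tested genes in the latter fit. Without Sham 3 it was 0.38.

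**Figure D1:**
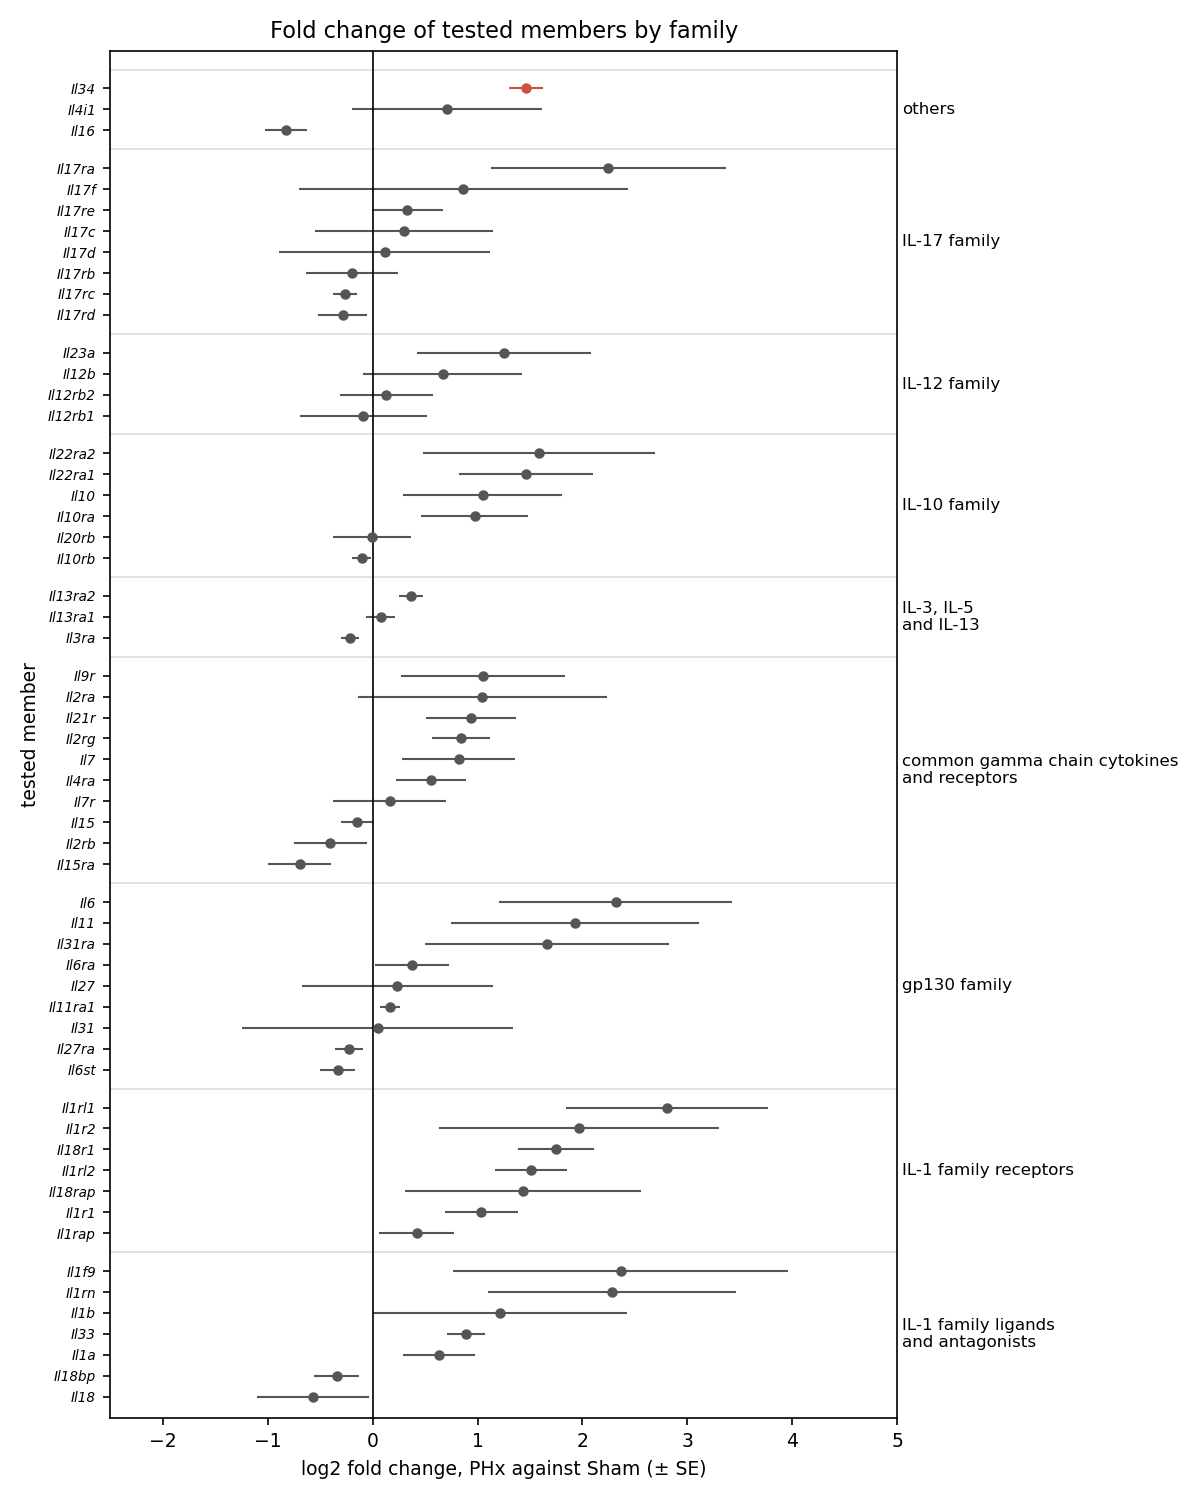
Log2 fold change of PHx against Sham (x axis) with its standard error for the 57 tested members, 1 row per gene, grouped by family; the red point is the member called at an adjusted p under 0.05. Il34 has a short error bar at 1.46, while members such as Il1f9 and Il17ra lie above 2 with errors over 1.

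Il34, the cytokine that shares the receptor CSF1R with macrophage colony-stimulating factor, rose after PHx. It stood at 11.2, 10.6 and 10.8 CPM in Sham 1, 3 and 4 and at 31.5, 23.9 and 34.2 CPM in PHx 1, 3 and 4. The Sham libraries were almost level, and every PHx library lay above the highest of them. The mean went from 10.9 ± 0.34 to 29.9 ± 5.33 CPM (SD, n = 3), a log2 fold change of 1.46 ± 0.16 (SE) with an edgeR adjusted p of 0.0135. The gene lies on the minus strand of chromosome 8, from 110741829 to 110805945 (mm10), where 3 non-coding genes on the other strand overlap it with at most 56 counts per library. The call was lost without each of Sham 1, Sham 3 and Sham 4, with adjusted p of 0.0777, 0.115 and 0.101 at log2 fold changes of 1.46, 1.41 and 1.42. When replicate numbers entered the model as a block, the adjusted p was 0.0709 at a log2 fold change of 1.44. Csf1r, the receptor of this ligand on macrophages, stood at 113, 41.7 and 55.9 CPM in Sham and at 60.7, 40.1 and 64.5 CPM in PHx, and the groups overlapped. The stellate, fibroblast and mesothelial sums given above were higher in the same PHx libraries, and their part in the Il34 difference was not tested.

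**Figure D2:**
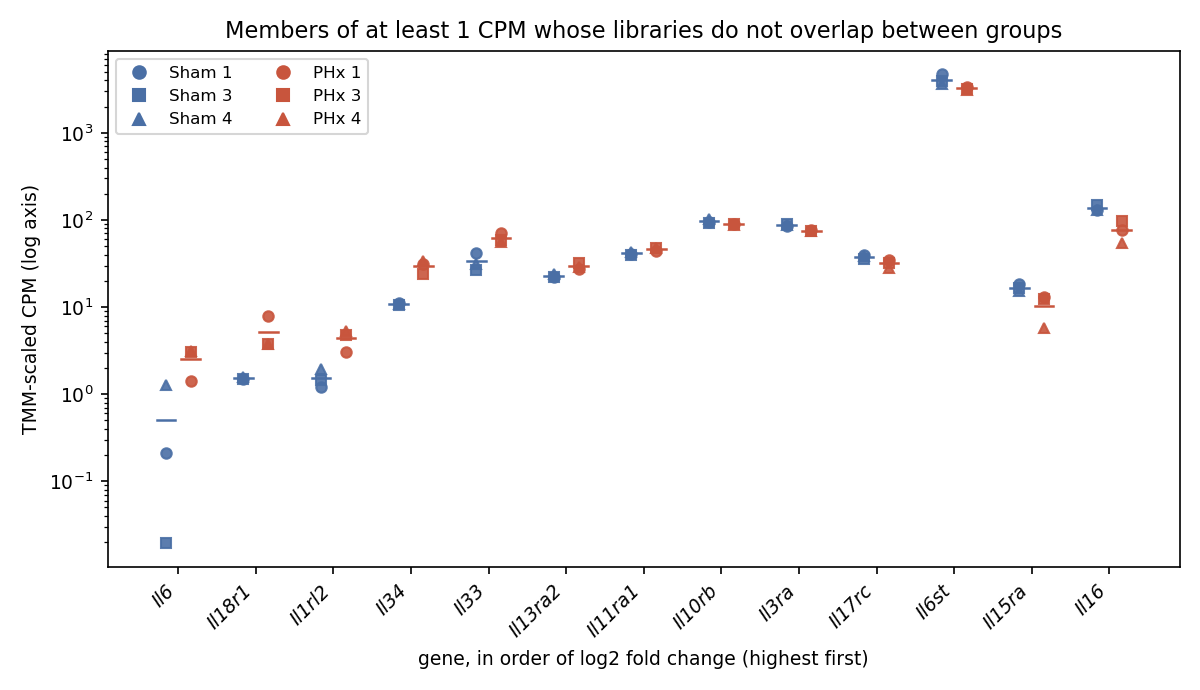
TMM-scaled CPM on a log axis for each library (symbols by replicate number, blue Sham, red PHx, bars at the group means) of the 13 members with at least 1 CPM in a group mean and no overlap between groups. Il34 and Il18r1 have tightly grouped Sham libraries below all PHx libraries, and receptor chains such as Il11ra1 and Il10rb lie close together in both groups.

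Among the IL-1 family ligands and antagonists, 7 of 11 were tested, 5 had a positive and 2 a negative log2 fold change, and none passed. Il33, the nuclear alarm cytokine, stood at 41.9, 26.7 and 31.6 CPM in Sham 1, 3 and 4 and at 70.4, 59.3 and 56.1 CPM in PHx. All PHx libraries lay above all Sham libraries. The log2 fold change was 0.89 ± 0.18 with an adjusted p of 0.0818 in edgeR, and DESeq2 called it with an adjusted p of 0.00139. Il1a, a membrane-bound and intracellular form of IL-1, stood at 247, 161 and 304 CPM in Sham and 236, 342 and 528 CPM in PHx. Its groups overlapped, with PHx 1 below 2 of the Sham libraries (log2 fold change 0.63 ± 0.35, adjusted p = 0.494). Il18, the partner of IL-1 in inflammasome signalling, was scarce, at 0.711 to 2.15 CPM in Sham and 0.625 to 0.962 CPM in PHx. Its soluble inhibitor Il18bp, with 12.1 RPKM per length beside 0.624 RPKM for Il18, stood at 20.7 to 30.6 CPM in Sham and 15.8 to 23.6 CPM in PHx.

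Il1b, Il1rn and Il1f9 differed widely between libraries of the same group. Il1b, the secreted IL-1 of myeloid cells, stood at 199, 75.9 and 34.1 CPM in Sham 1, 3 and 4 and at 224, 17.8 and 474 CPM in PHx 1, 3 and 4. PHx 4 was the highest library and PHx 3 the lowest. Il1rn, the antagonist of the IL-1 receptor, stood at 17.1, 5.10 and 7.31 CPM in Sham and 23.0, 5.49 and 114 CPM in PHx. Il1f9, now called IL-36 gamma and named here after its values were seen, stood at 14.6, 4.29 and 1.10 CPM in Sham and 18.2, 1.23 and 82.8 CPM in PHx. Between PHx 4 and PHx 3 the ratio was 26.6 for Il1b, 20.9 for Il1rn and 67.4 for Il1f9. Their log2 fold changes of 1.21 ± 1.21, 2.28 ± 1.18 and 2.37 ± 1.60 did not pass (adjusted p = 0.705, 0.489 and 0.579). A non-coding gene on the other strand, Il1bos, overlaps Il1b and held at most 71 counts per library.

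All 7 tested IL-1 family receptor genes had a positive log2 fold change, with a median of 1.51, and none passed. Without PHx 4 the median was 0.70 and Il1rap stood at -0.089, and without PHx 1 and PHx 4 together the median was 0.34 with 4 positive and 3 negative. Of the 7 genes, 6 lie side by side on chromosome 1 between 40083308 and 40551707 (mm10), in the order Il1r2, Il1r1, Il1rl2, Il1rl1, Il18r1 and Il18rap. Il18r1, the ligand-binding chain for IL-18, stood at 1.51, 1.49 and 1.56 CPM in Sham and at 7.80, 3.81 and 3.75 CPM in PHx. Its groups were well apart (log2 fold change 1.75 ± 0.36, adjusted p = 0.0866 in edgeR and 0.00037 in DESeq2). Il1rl2, the receptor of the IL-36 cytokines, stood at 1.19, 1.47 and 1.95 CPM in Sham and at 3.01, 4.81 and 5.35 CPM in PHx. Those groups did not overlap either (1.51 ± 0.35, adjusted p = 0.119 in edgeR and 0.00197 in DESeq2). Il1rl1, which encodes the IL-33 receptor ST2, had 0, 2 and 6 counts in Sham 1, 3 and 4 and 19, 24 and 17 counts in PHx. The PHx libraries were higher in each case, but the level stayed at 0.354 to 0.492 CPM.

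Il1r1, the signalling receptor of IL-1, had the highest level per length of this cluster, at 51.1 RPKM over the 6 libraries. It stood at 262, 176 and 142 CPM in Sham and at 380, 248 and 564 CPM in PHx. PHx 3 lay below Sham 1, so the groups overlapped (log2 fold change 1.04 ± 0.35, adjusted p = 0.311). DESeq2 called it with an adjusted p of 0.0374. Without PHx 4 its log2 fold change was 0.70, and without PHx 1 and PHx 4 together 0.34. The decoy receptor Il1r2 stood at 32.4, 8.53 and 6.72 CPM in Sham and 37.4, 3.93 and 145 CPM in PHx. Il18rap, the second chain of the IL-18 receptor, stood at 9.25, 4.37 and 3.33 CPM in Sham and 11.996, 1.13 and 32.6 CPM in PHx. Both followed the library order of Il1b, not the group. Il1rap, the chain shared by the receptors of IL-1, IL-33 and IL-36, stood at 11.4 to 16.4 CPM in Sham and at 14.5, 11.4 and 29.4 CPM in PHx. The 2 remaining receptor genes of this family, Il1rapl1 and Il1rapl2, had no count in any library.

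The full library order of Il1b was found for 3 of the 57 tested members, Il1b, Il1r2 and Il18rap, beside 0.935% of all tested genes. More members shared only the order of the highest libraries. PHx 4, then PHx 1, then Sham 1 were the highest libraries for 11 of the 57 tested members, beside 3.11% of all tested genes. These were Il1b, Il1f9, Il1rn, Il1r1, Il1r2, Il18rap, Il17ra, Il10ra, Il2rg, Il2ra and Il6ra. The pattern was taken from members of this same set after their values were seen, so its count among them is no independent result. Another pattern, with Sham 4, PHx 3 and PHx 4 the 3 highest libraries, held for 8 of the 57 members, beside 9.79% of all tested genes. The summed neutrophil markers had PHx 4, PHx 1 and Sham 1 highest too, with S100a9 at 223, 9.56 and 1440 CPM in PHx 1, 3 and 4 and Csf3r, the receptor of granulocyte colony-stimulating factor, at 137, 5.75 and 310 CPM. All 14 neutrophil markers were present in every library, and PHx 4 was the highest library for 13 of them. The exception was Mpo, at 3.75 CPM in PHx 1 and 2.12 CPM in PHx 4. Sham 1 was the lowest library for Elane and Mpo, at 0.0530 and 0.292 CPM. The sum of the 7 monocyte and dendritic cell markers had the same libraries highest. It was 52.2, 42.7 and 16.0 CPM in PHx 4, PHx 1 and Sham 1 and at most 12.7 CPM in the others. Single markers of this list differed, and Ly6c2 alone gave 30.1 CPM of the sum in PHx 4. Siglech and Cd209a were higher in PHx 3 than in Sham 1, and Flt3 was lower in PHx 4 than in Sham 1. The 6 B and plasma cell markers summed to 12.3, 15.1 and 11.3 CPM in these 3 libraries and to 5.67 to 7.19 CPM in the others. The T and NK cell and the Kupffer cell and macrophage sums had other orders, with Sham 1 highest. T and NK cell markers summed to 26.8, 14.7 and 17.6 CPM in Sham 1, 3 and 4 and to 23.5, 7.52 and 12.7 CPM in PHx 1, 3 and 4. For Kupffer cells and macrophages the sums were 591, 159 and 300 CPM in Sham and 282, 221 and 272 CPM in PHx. The part of these cells in the levels of the members was not tested.

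**Figure D3:**
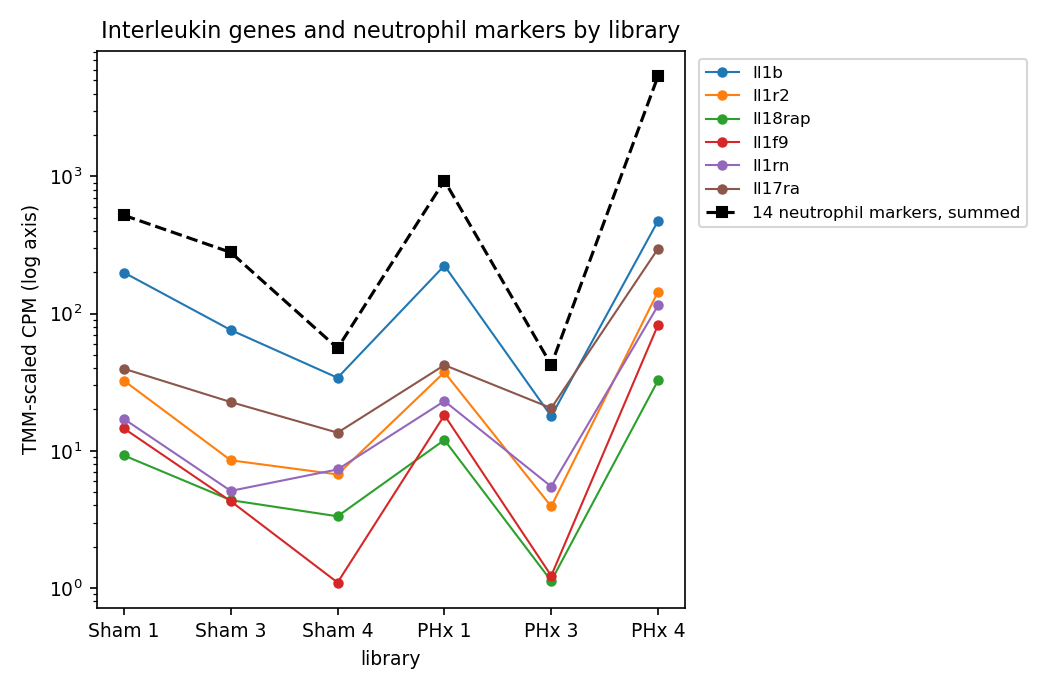
TMM-scaled CPM on a log axis in each of the 6 libraries for Il1b, Il1r2, Il18rap, Il1f9, Il1rn and Il17ra (coloured lines) and for the sum of 14 neutrophil markers (black dashes); lines join values of the same gene and imply no order of libraries. All 7 profiles peak in PHx 4 and rise in PHx 1 above the other libraries, with PHx 3 near or at the lowest level.

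Of 11 members of the IL-17 family 8 were tested and none passed. Il17ra, the shared receptor chain of the IL-17 cytokines, was at 39.6, 22.7 and 13.6 CPM in Sham 1, 3 and 4, at 42.1 and 20.5 CPM in PHx 1 and 3, and at 297 CPM in PHx 4. The value of PHx 4 was 11.7 times the Sham mean, while PHx 1 and PHx 3 lay in or near the Sham range. The log2 fold change was 2.25 ± 1.12 (adjusted p = 0.479). Among the other IL-17 receptor chains Il17rc, which pairs with Il17ra for IL-17A and IL-17F, stood at 35.9 to 39.7 CPM in Sham and 28.1 to 34.5 CPM in PHx. Those groups did not overlap, with a log2 fold change of -0.26 ± 0.12 (adjusted p = 0.402). Il17rd, known as an inhibitor of growth factor signalling, stood at 23.4 to 26.5 CPM in Sham and at 24.8, 24.3 and 13.2 CPM in PHx. Il17a, the T cell cytokine of this family, had 10, 0 and 36 counts in PHx 1, 3 and 4 and none in Sham, too few to test.

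The gp130 family held the member with the highest level per length. Il6st, which encodes gp130, stood at 4714, 3923 and 3631 CPM in Sham and at 3388, 3229 and 3113 CPM in PHx. Every PHx library lay below every Sham library, with a log2 fold change of -0.33 ± 0.17 that did not pass (adjusted p = 0.452). Of all member counts, Il6st took 67.8% to 70.4% in Sham and 59.1%, 62.8% and 44.2% in PHx 1, 3 and 4. The share also depends on the other members. All members summed to 7045 CPM in PHx 4, beside 5737 and 5142 CPM in PHx 1 and 3, where Il6st itself was at a similar level. The summed level of the sinusoidal endothelial markers was also lower in all PHx libraries, and its part in the Il6st difference was not tested. Il6ra, the IL-6 binding chain, stood at 7.50 to 12.1 CPM in Sham and 12.4, 6.64 and 16.6 CPM in PHx. Il11ra1, the IL-11 binding chain, stood at 39.8 to 43.4 CPM in Sham and 44.6 to 47.4 CPM in PHx, a log2 fold change of 0.17 ± 0.09 (adjusted p = 0.501). Its near-identical copy Il11ra2 had between 1 and 7 counts per library, and reads could be split between them.

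The ligands of this family were rare. Il6 stood at 0.212, 0.0193 and 1.28 CPM in Sham 1, 3 and 4, the middle value from a single count, and at 1.43, 3.01 and 3.17 CPM in PHx. The groups did not overlap, but Sham 4 came close to PHx 1 (log2 fold change 2.32 ± 1.11, adjusted p = 0.446). Il11 had 1, 1 and 20 counts in Sham and 9, 23 and 54 counts in PHx, and the groups overlapped. Il27ra, a receptor chain for IL-27, stood at 59.6 to 76.0 CPM in Sham and 51.5 to 63.7 CPM in PHx, and its groups overlapped (log2 fold change -0.23 ± 0.13). Of the 10 members of this family 9 were tested, 7 with a positive and 2 with a negative log2 fold change, and none passed.

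Members with the highest level per length are compared on the deposited RPKM, which divides counts by gene length and library size. Il6st averaged 671 RPKM over all libraries and was followed by Il4ra at 87.0, Il1a at 71.1, Il1b at 64.7 and Il1r1 at 51.1 RPKM. Il10rb, Il13ra1, Il2rg, Il3ra, Il11ra1, Il27ra and Il17ra came next, from 44.4 down to 18.1 RPKM. Of these 12 members 10 encode receptor chains, and the 2 cytokines were Il1a and Il1b. Il17ra owed its place to PHx 4, where it stood at 73.7 RPKM beside 3.36 to 11.2 RPKM in the other libraries, and its mean without PHx 4 was 6.99 RPKM, rank 18 among the members. The neighbours Il1a and Il1b changed places between libraries, since Il1b ranged from 6.63 RPKM in PHx 3 to 177 RPKM in PHx 4. At the other end, 9 members had no count in any library (Il1f8, Il1f10, Il1rapl1, Il1rapl2, Il3, Il9, Il20, Il24 and Il25), and 20 members, those 9 included, stayed under 10 counts in every library.

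**Figure D4:**
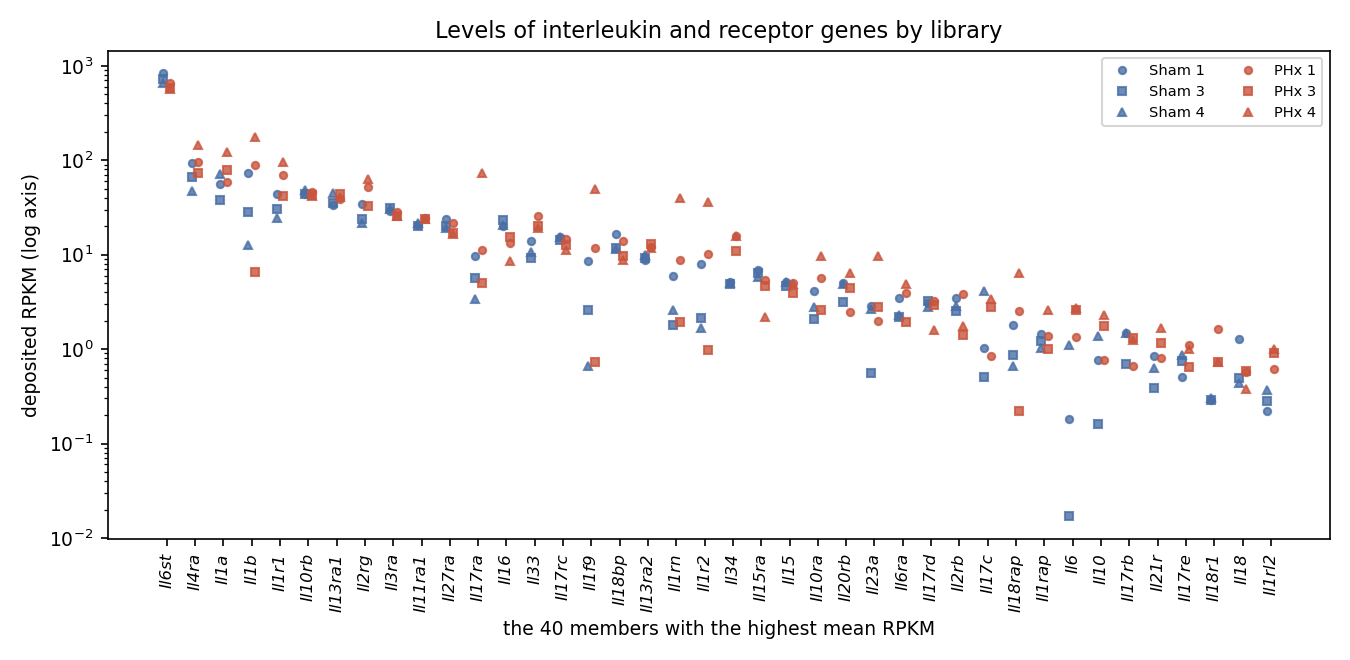
Deposited RPKM on a log axis of the 40 members with the highest mean, by library (blue Sham, red PHx, symbols by replicate number); values of 0 are not drawn. Il6st stands apart above all others, and the libraries of 1 group spread widely for Il1b, Il17ra, Il1f9, Il1rn, Il1r2, Il18rap and Il6.

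Of 14 common gamma chain cytokines and receptors 10 were tested, 7 with a positive and 3 with a negative log2 fold change, and none passed. Il4ra, the IL-4 receptor chain, stood at 500, 350 and 251 CPM in Sham and 469, 387 and 762 CPM in PHx, and the groups overlapped (log2 fold change 0.56 ± 0.33, adjusted p = 0.523). Il2rg, the common gamma chain itself, stood at 58.4, 39.7 and 36.6 CPM in Sham and 81.3, 55.0 and 105 CPM in PHx. PHx 3 lay just below Sham 1 (0.84 ± 0.28, adjusted p = 0.294). Il15ra, which presents IL-15 to neighbouring cells, stood at 18.3, 16.5 and 15.1 CPM in Sham and 12.9, 12.2 and 5.69 CPM in PHx, with no overlap (-0.69 ± 0.30, adjusted p = 0.397). Its ligand Il15 stood at 11.8 to 13.5 CPM in Sham and 10.1 to 12.5 CPM in PHx. Il7 and Il7r stayed at or below 1.22 CPM in every library.

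IL-13 binds a signalling and a decoy chain. Il13ra1, part of the signalling receptor, stood at 130, 133 and 170 CPM in Sham and 137, 165 and 154 CPM in PHx, a log2 fold change of 0.08 ± 0.14. Il13ra2, known mainly as a decoy for IL-13, stood at 21.9, 22.2 and 24.1 CPM in Sham and 27.7, 31.8 and 28.6 CPM in PHx. All its PHx libraries were higher (0.37 ± 0.11, adjusted p = 0.253). Il3ra, the IL-3 binding chain, stood at 85.0, 90.0 and 86.7 CPM in Sham and at 75.7, 75.1 and 74.1 CPM in PHx. The spread was small within both groups and they did not overlap, but the difference was -0.22 ± 0.09 on the log2 scale (adjusted p = 0.355). The ligands Il3, Il4, Il5 and Il13 had at most 11 counts in any library.

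Of 11 members of the IL-10 family 6 were tested and none passed. Il10rb, a chain shared with other receptors, had the highest level per length of them and stood at 92.2 to 102.0 CPM in Sham and 88.0 to 90.3 CPM in PHx (log2 fold change -0.10 ± 0.09, adjusted p = 0.652). Il10ra, the IL-10 binding chain, stood at 14.7, 7.39 and 9.85 CPM in Sham and 18.7, 9.22 and 34.6 CPM in PHx. Il10 itself stood at 0.213 to 1.83 CPM in Sham and 0.947 to 3.06 CPM in PHx, and Il22ra2, the soluble inhibitor of IL-22, did not exceed 0.410 CPM. In the IL-12 family 4 of 6 members were tested and none passed, with log2 fold changes from -0.09 to 1.25.

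Il16, a chemoattractant released from a larger precursor protein, had the lowest log2 fold change of the 57 tested members. It stood at 130, 148 and 130 CPM in Sham 1, 3 and 4 and at 77.7, 97.1 and 54.6 CPM in PHx 1, 3 and 4. Every PHx library lay below every Sham library. The log2 fold change of -0.83 ± 0.20 did not pass in edgeR (adjusted p = 0.145) while DESeq2 called it at an adjusted p of 0.00943. The summed sinusoidal endothelial markers were lowest in PHx 4 as well, and their part in the Il16 difference was not tested.

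**Figure D5:**
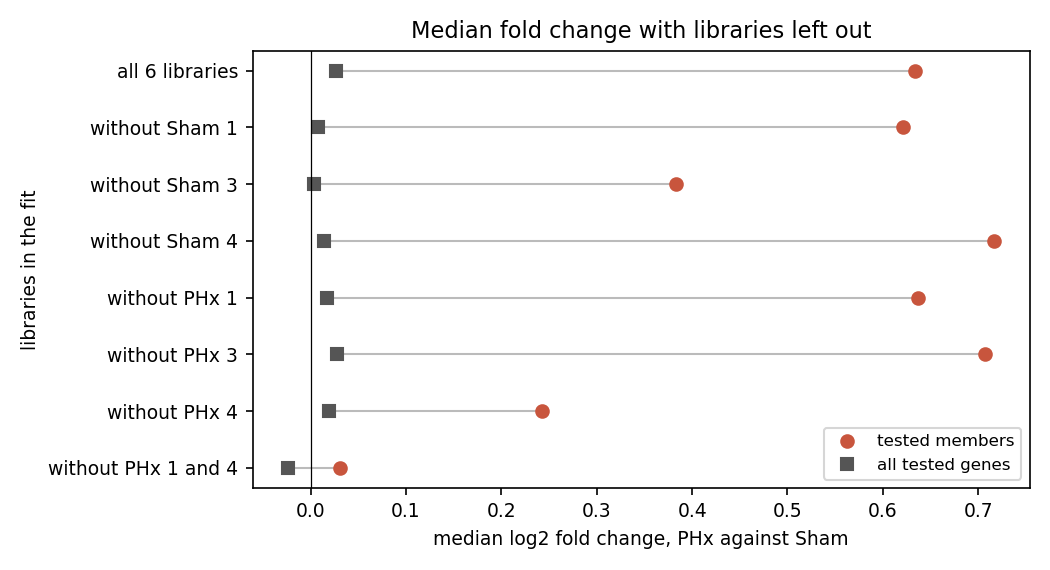
Median log2 fold change of PHx against Sham (x axis) over the tested members (red circles) and over all tested genes (grey squares), with all 6 libraries and with the named libraries left out. The median of all genes stays between -0.02 and 0.03, and that of the members moves from 0.63 to 0.24 without PHx 4 and to 0.03 without PHx 1 and PHx 4.

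Of 44 partner genes listed by role (other ligands and receptor chains of these families, adaptors, kinases, STAT factors and inhibitors), 41 were tested and none passed in edgeR over all genes, with a median log2 fold change of 0.07. At an unadjusted p under 0.05 there were 2 higher and 4 lower, beside 7.93% and 4.73% of all tested genes. DESeq2 called 2 higher and 2 lower, beside 3.85% and 0.654% of all genes, and limma-voom 0 and 0. The most abundant per length were Socs3, Jak1, Nfkbiz and Lifr. Jak1, a kinase that binds gp130, stood at 2112, 2029 and 2094 CPM in Sham and 1239, 1629 and 1321 CPM in PHx. Its groups did not overlap (log2 fold change -0.57 ± 0.15, adjusted p = 0.189 in edgeR and 0.00547 in DESeq2). Socs3, the feedback inhibitor of gp130 signalling, stood at 1052, 734 and 1129 CPM in Sham and 758, 1132 and 2403 CPM in PHx. Lifr, the gp130 partner for leukaemia inhibitory factor, stood at 1086 to 1170 CPM in Sham and 1082 to 1254 CPM in PHx.

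A further 3 partner genes were named after their values were seen. Lif, a ligand of gp130 and Lifr, stood at 1.25, 0.928 and 2.58 CPM in Sham and 6.59, 5.65 and 5.92 CPM in PHx (log2 fold change 1.93 ± 0.40, adjusted p = 0.0892 in edgeR and 0.000183 in DESeq2). Cntfr, the receptor chain for ciliary neurotrophic factor, stood at 107, 114 and 111 CPM in Sham and 42.6, 61.4 and 10.9 CPM in PHx (-1.53 ± 0.60, adjusted p = 0.391). Socs2, an inhibitor of cytokine receptors, stood at 21.8 to 26.5 CPM in Sham and 31.8 to 42.6 CPM in PHx (0.64 ± 0.15, adjusted p = 0.117). In all 3 genes the groups did not overlap. Of the 41 tested partner genes, 3 had all PHx libraries above Sham and 6 had all below. Over all tested genes the shares were 10.6% and 9.96%.

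Promoter windows of RefSeq (GRCm38.p6, from 250 bases before to 50 bases after a listed start) were found for 65 of the 82 members, and the window nearest the deposited 5′ end was read. AP-1 and NF-kB are transcription factors that act downstream of IL-1 receptors. The motif TGANTCA of AP-1 was searched on both strands and lay in 12 of the 65 windows, and in 7.81% of all 32851 windows of the same length. The NF-kB consensus lay in 5 of the 65 and in 4.51% of all windows. For each member 1 window was read, while all windows were counted without such a choice, so the sets are unlike. The 12 members with an AP-1 match include Il9 and Il1f8, which had no count in any library. Of the 8 tested members whose PHx libraries all lay above Sham, 7 had a window (Il34 had none), and Il6 and Il13ra2 were the 2 with an AP-1 match. Of the 11 members with PHx 4, PHx 1 and Sham 1 highest, 9 had a window, and Il1rn was the 1 with an AP-1 match. The windows of Il6, Il13ra2 and Il1rn were chosen for these matches, and that of Il33 as a separated member with no match. They are shown 5′ to 3′ with matches in capitals. Il33 is at chr19:29924863-29925162 on the plus strand, Il6 at chr5:30012864-30013163 on the plus strand, Il13ra2 at chrX:147429143-147429442 on the minus strand and Il1rn at chr2:24336610-24336909 on the plus strand.
Il33: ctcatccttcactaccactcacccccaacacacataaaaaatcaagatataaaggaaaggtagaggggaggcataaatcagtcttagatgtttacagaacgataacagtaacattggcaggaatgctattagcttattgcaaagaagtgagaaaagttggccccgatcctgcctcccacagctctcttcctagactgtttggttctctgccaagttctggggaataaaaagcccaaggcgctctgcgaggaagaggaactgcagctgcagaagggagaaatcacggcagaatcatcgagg
Il6: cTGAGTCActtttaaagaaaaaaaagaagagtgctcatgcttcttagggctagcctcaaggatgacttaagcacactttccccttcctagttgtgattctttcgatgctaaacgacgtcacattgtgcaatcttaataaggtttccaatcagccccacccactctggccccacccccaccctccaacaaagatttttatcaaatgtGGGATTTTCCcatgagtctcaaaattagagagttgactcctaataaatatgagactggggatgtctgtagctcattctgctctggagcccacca
Il13ra2: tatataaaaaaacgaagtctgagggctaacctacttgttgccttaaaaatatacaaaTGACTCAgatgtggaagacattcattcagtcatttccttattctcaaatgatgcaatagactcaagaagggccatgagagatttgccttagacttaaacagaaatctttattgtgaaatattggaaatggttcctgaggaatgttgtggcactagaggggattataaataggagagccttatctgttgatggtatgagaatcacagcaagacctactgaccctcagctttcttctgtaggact
Il1rn: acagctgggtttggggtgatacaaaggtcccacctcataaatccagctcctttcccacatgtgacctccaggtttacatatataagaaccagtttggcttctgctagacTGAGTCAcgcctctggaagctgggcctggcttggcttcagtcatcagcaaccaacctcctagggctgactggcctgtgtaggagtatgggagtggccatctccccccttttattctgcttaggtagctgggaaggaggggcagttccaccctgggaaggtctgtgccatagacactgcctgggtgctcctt
The Il6 window holds an AP-1 and an NF-kB match, the Il13ra2 and Il1rn windows an AP-1 match each, and the Il33 window neither. A match describes letters and is not evidence of binding.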

How the data were processed

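RNA of 3 Sham and 3 PHx libraries was analysed from a single table. The authors deposited a raw count and an RPKM value per gene and library. RPKM equalled the count scaled by the deposited length and the summed counts for 100% of values (relative tolerance 1e-06). The length, a value of another kind, served only for that check. The build mm10 (GRCm38) and the tools TopHat2 2.0.13 and bcl2fastq are listed in the submitters' processing notes. The counting program, annotation release and use of strand are not given in the sources used here, so overlapping and antisense genes cannot be told apart. 31 of the 82 members overlap another gene of the table. Members and lists were chosen with earlier results of these data known.

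The whole table was fitted with edgeR 4.0.16 in R 4.3.3 (TMM, filterByExpr, robust quasi-likelihood F-test, group as the only term), with Benjamini-Hochberg adjustment over 19033 genes and a threshold of 0.05. The SE of a log2 fold change is its size over the root of the F statistic. The code was tested on simulated data. DESeq2 1.42.0, limma-voom (limma 3.58.1), other scaling factors and filters, a replicate block, and fits without 1 library or without PHx 1 and PHx 4 were alternatives. The limit that a count of 0 allows covers counting error only. No library was a copy of another (chi-square per degree of freedom at least 49.9).

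Members were named if called, if the groups did not overlap at 1 CPM or more, if among the 12 with the highest RPKM, or from a fixed list chosen with those earlier results known; Il1f9, Il2ra and Il31ra and other members outside the rule were named after their values were seen. Of the partner genes, the 4 with the highest RPKM were named by rule, and Lif, Cntfr and Socs2 after their values were seen.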

Additional observations from a re-analysis of the deposited data

How the results depend on the processing

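Il34 kept its sign in every alternative run, with log2 fold changes from 1.13 to 1.59, and adjusted p between 1.52e-11 (DESeq2) and 0.115 (without Sham 3). With no filter on low counts, 3 of the 73 tested members were higher (Il34, Il33 and Il18r1), beside 359 of 31689 genes. DESeq2 gave 5 members higher (Il34, Il33, Il18r1, Il1rl2 and Il1r1) and 1 lower (Il16). With the replicate block 0 members were higher. Leaving out each library gave 0 to 1 higher and 0 to 0 lower members. Of the partner genes, no filter gave 1 higher, DESeq2 gave 2 higher and 2 lower, and leaving out each library gave 0 to 0 higher and 0 to 1 lower. Over all genes the main counts of 161 and 3 became 359 and 30 with no filter, 719 and 122 with DESeq2, 94 and 1 with limma-voom, 14 and 1 with the replicate block, 63 and 20 without PHx 1 and PHx 4, and 0 to 160 and 0 to 9 when each library was left out (0 and 0 without Sham 4, 6 and 1 without Sham 3). The cause of these differences was not tested. Deviations from the group means did not pair libraries of the same number (r of -0.0897, -0.2294 and 0.0269 for numbers 1, 3 and 4, across genes), and the block ended the call of Il34 (adjusted p = 0.0709).

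Members and partners that had not passed changed sign in some fits. Without PHx 1 and PHx 4 the values were -2.54 for Il1b, -2.44 for Il1f9, -2.33 for Il18rap, -2.02 for Il1r2, -0.85 for Il1rn, -0.48 for Il6ra, -0.45 for Il7r, -0.32 for Il17ra, -0.29 for Il1rap, -0.22 for Il10ra and -0.064 for Lifr, with 1 PHx library that is assumed to vary like the Sham group. For the members described as highest in PHx 4, PHx 1 and Sham 1, that choice itself places PHx 3 below Sham 1, so their turn of sign in this fit is no independent result. Lifr was at -0.0041 with upper-quartile factors. Leaving out each library gave -0.18 to 0.55 for Il7r, -0.88 to 0.079 for Il18, -0.089 to 0.66 for Il1rap, -0.019 to 0.17 for Il13ra1, -0.040 to 0.85 for Socs3 and -0.039 to 0.063 for Lifr.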

Other observations

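Other members and partners varied within both groups. Il31ra, a receptor chain for IL-31, stood at 1.06, 0.155 and 1.71 CPM in Sham 1, 3 and 4 and at 0.251, 4.34 and 4.67 CPM in PHx 1, 3 and 4. Il17c, an epithelial cytokine of the IL-17 family, stood at 0.689, 0.329 and 2.70 CPM in Sham and at 0.522, 1.84 and 2.23 CPM in PHx. Nfkbiz, an NF-kB cofactor induced by IL-1 and IL-17, stood at 573, 168 and 882 CPM in Sham and at 295, 872 and 1484 CPM in PHx. Sham 3 was the lowest library for 18 of the 57 tested members (31.6%), beside 15.9% of all tested genes.

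A few members had nearly all their counts in PHx libraries. Il20ra, a receptor chain of the IL-10 family, had 8, 1 and 4 counts in PHx 1, 3 and 4 and none in Sham. Il1f6, now called IL-36 alpha, had 0, 1 and 21 counts in PHx and none in Sham. Il12a, the p35 subunit of IL-12, had 1, 0 and 1 counts in Sham and 7, 7 and 23 counts in PHx. None had enough counts to be tested. They were picked by their values from the 25 members not tested, and the share of such genes over the whole table was not counted. Il5ra, also not tested, had 6, 0 and 20 counts in Sham 1, 3 and 4 and 4, 2 and 8 counts in PHx.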
